A study of Homo sapiens with 8 samples.

Results

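The canonical human Y RNAs are the products of 4 genes, RNY1, RNY3, RNY4 and RNY5, and their best known binding proteins are Ro60, encoded by RO60, and La, encoded by SSB. These 6 genes were looked up by symbol among the 58302 rows of a gene count table, and 5 of the 6 were matched and passed the filter on low counts. The group was chosen from measured values, since the change of the Y RNAs between these same libraries was already known, so the differences of its members are given as a description, without p-values, and their calls in the fit over all genes only as a count that supports nothing. RNY5 had no row under its GENCODE 44 symbol and was not analysed here. The libraries came from A549, a lung adenocarcinoma epithelial cell line, transiently transfected either with a scramble control siRNA (4 libraries labelled siCTRL) or with an siRNA against APEX1, the gene of the abasic-site endonuclease APE1 (4 libraries labelled siAPEX1). The model is thus 1 cell line, and the controls were transfected as well. Total RNA was made into libraries with a kit for small RNAs, and the study asked which miRNAs change in lung cancer cells when APE1 is silenced.

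Y RNAs are short noncoding transcripts of RNA polymerase III whose ends pair into a stem. Ro60 binds this stem and protects the RNA from decay, and La binds the run of U at the 3′ end of new RNA polymerase III transcripts. Y RNAs have described roles in RNA quality control together with Ro60 and in the start of DNA replication, and Ro60 and La are autoantigens in lupus and Sjögren's syndrome.

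RNY1, RNY4 and RNY5 are shown because the results turn on how alike and how different the RNAs are. They are printed 5′ to 3′ from GRCh38, and the capitals mark the bases that pair in the outermost stem of the minimum-energy fold predicted by RNAfold, with the bases of small bulges left in lower case.
RNY1: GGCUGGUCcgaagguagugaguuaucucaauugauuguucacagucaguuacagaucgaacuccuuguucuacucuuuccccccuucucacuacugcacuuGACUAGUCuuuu
RNY4: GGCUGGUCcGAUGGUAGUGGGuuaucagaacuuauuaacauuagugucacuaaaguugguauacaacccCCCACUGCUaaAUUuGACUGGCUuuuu
RNY5: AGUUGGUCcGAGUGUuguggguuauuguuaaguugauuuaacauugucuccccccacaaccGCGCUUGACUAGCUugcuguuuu
All 4 genes lie on chromosome 7. RNY5 occupies chr7:148941488-148941571 (plus strand, 84 bases, placed by RefSeq), RNY4 chr7:148963315-148963410 (plus strand, 96 bases) and RNY1 chr7:148987136-148987248 (minus strand, 113 bases). Bases 4 to 11, UGGUCCGA, were identical in the RNAs shown, and their first bases lie in the 5′ arm of the predicted stem in each. Counted inward only to the first interruption larger than a small bulge, the predicted outer stem held 8 base pairs in RNY1, 20 in RNY4 and 14 in RNY5. Pairs beyond that interruption were not counted, so these values do not compare the full stems. The RNAs ended in a run of 4 U in RNY1 and RNY5 and of 5 U in RNY4. RNY1 and RNY3 were the most alike, with 72.6% identical positions in a global alignment, against 65.1% for RNY3 and RNY4, 63.7% for RNY1 and RNY4 and 55.9% to 62.3% for the pairs with RNY5. RO60 lies at chr1:193059454-193091777 and SSB at chr2:169791933-169812064, each on the plus strand and with 12 merged exon blocks.

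Between 1639796 and 1949886 reads were counted on genes in the libraries labelled siCTRL and between 1348386 and 1619500 in those labelled siAPEX1. Every library labelled siAPEX1 was smaller than every library labelled siCTRL, so library size and label cannot be told apart. APEX1 itself had 51, 61, 64 and 47 counts in the libraries labelled siCTRL and 21150, 19470, 27916 and 20767 in those labelled siAPEX1, which goes against the label, so directions below refer to the labels as given. The siRNA sequence lies within APEX1, and whether reads of the siRNA itself are among these counts was not tested. The study reports that the APE1 protein was silenced in A549 cells, with a Western blot of cells given the APE1 siRNA. Of the A549 markers, CDKN2A, which this line has lost, had 0 counts in all 8 libraries, and 6 epithelial genes (EPCAM, KRT7, KRT8, KRT18, KRT19 and CDH1) summed to 1024 to 1379 counts in the libraries labelled siCTRL and to 278 to 358 in those labelled siAPEX1. These markers did not move alike, since the 4 keratins were lower (log2 fold changes of -1.01 to -2.31) and CDH1 was higher (0.92, edgeR adjusted p = 2.45e-04). Markers of leukocytes, fibroblasts and endothelium each summed to at most 12 counts in any library. The part of library size and of the markers in the results below was not tested.

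The 3 measured Y RNAs were all higher in the libraries labelled siAPEX1, RNY1 most, then RNY4, then RNY3. RNY1 had 845, 983, 978 and 868 counts in siCTRL replicates 1 to 4 and 2486, 2661, 2631 and 2130 in siAPEX1 replicates 1 to 4. The groups did not overlap, although the siAPEX1 libraries were the shallower ones. In CPM, the count per unit of library size after adjustment by TMM (trimmed mean of M values) factors, RNY1 went from 449 ± 24.9 to 1906 ± 199 (means ± SD, n = 4 each), 4.25-fold, and its fitted log2 fold change was 2.09 ± 0.0914 (SE). RNA was taken from bulk cultures, in which a change in the number of cells that make an RNA and a change in the amount per cell cannot be told apart.

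RNY4 was the least counted of the 3. It had 151, 224, 201 and 176 counts in the libraries labelled siCTRL and 288, 420, 310 and 271 in those labelled siAPEX1. Its groups did not overlap either, and siAPEX1 replicate 2 stood above the other libraries of its group. Its level was 91.7 ± 13.2 CPM against 249 ± 57.3 CPM (n = 4 each), with a log2 fold change of 1.44 ± 0.119 (SE).

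RNY3, the most abundant, had 2965, 3721, 3460 and 3184 counts in the libraries labelled siCTRL and 3948, 4259, 4193 and 3645 in those labelled siAPEX1. Its raw counts overlapped, since siCTRL replicate 2 exceeded siAPEX1 replicate 4. After scaling the groups no longer overlapped, and RNY3 had 1628 ± 141 CPM against 3088 ± 244 CPM (n = 4 each), 1.9-fold, and a log2 fold change of 0.92 ± 0.0864 (SE).

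Of the 5 members in the fit over all genes, 3 (RNY1, RNY3 and RNY4) were called higher and 0 lower by the edgeR quasi-likelihood test at an adjusted p of at most 0.05, and DESeq2 gave the same counts of 3 and 0. Over all 5368 genes tested 1702 were called, which is 31.7%, with 15.9% called higher and 15.8% called lower. Since the group was chosen on this contrast, nothing is read from the members' count or from groups that do not overlap. The share of all genes without overlap is not given here. Scaled by library size alone, without TMM factors, the log2 fold changes were 1.75 for RNY1, 1.10 for RNY4 and 0.59 for RNY3. That scaling shifts all genes alike, and their median from 0 to -0.34, so it could not change the order of the 3 Y RNAs.

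**Figure D1:**
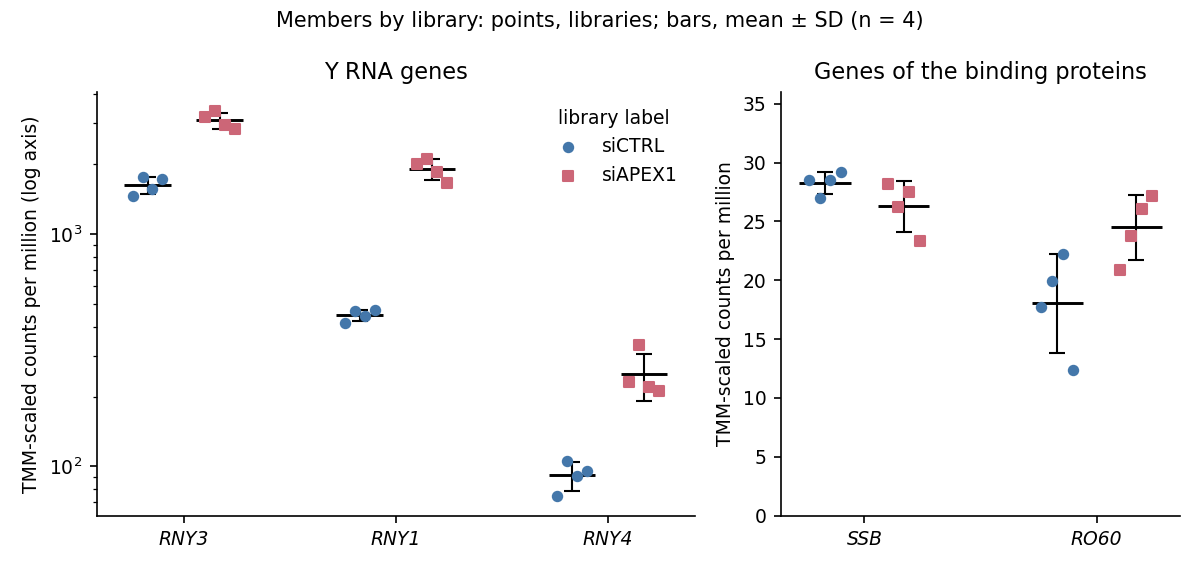
TMM-scaled CPM of each member in each library (left, Y RNA genes, log axis; right, genes of the binding proteins, linear axis from 0), with circles for siCTRL, squares for siAPEX1 and bars for the mean ± SD of 4 libraries. RNY1, RNY3 and RNY4 do not overlap between the groups, whereas SSB and RO60, with at most 63 counts in any library, do. The members were chosen on this contrast, so nothing is read from the overlaps.

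The mix of Y RNAs differed between the groups, which can be read within each library without any scaling between libraries. The count of RNY1 per count of RNY3 was 0.285, 0.264, 0.283 and 0.273 in siCTRL replicates 1 to 4 and 0.63, 0.625, 0.627 and 0.584 in siAPEX1 replicates 1 to 4. All siAPEX1 libraries had at least 0.584 and all siCTRL libraries at most 0.285, a difference of 1.16 on the log2 scale. The count of RNY4 per count of RNY3 was 0.0509, 0.0602, 0.0581 and 0.0553 against 0.0729, 0.0986, 0.0739 and 0.0743. These ratios did not overlap either, with a smaller difference of 0.50 (log2), or 0.40 without siAPEX1 replicate 2. Both ratios restate the fold changes on which the genes were chosen, so nothing is read from their lack of overlap. As a share of the 3 canonical genes together, RNY1 went from 20.7% ± 0.632 to 36.3% ± 0.827 (SD, n = 4 each) and RNY3 from 75.1% ± 0.403 to 59.0% ± 0.968. The share of RNY4 was 4.21% ± 0.312 and 4.71% ± 0.680, which overlapped between the groups. Of the 3 measured Y RNAs, RNY3 was the most counted in every library.

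**Figure D2:**
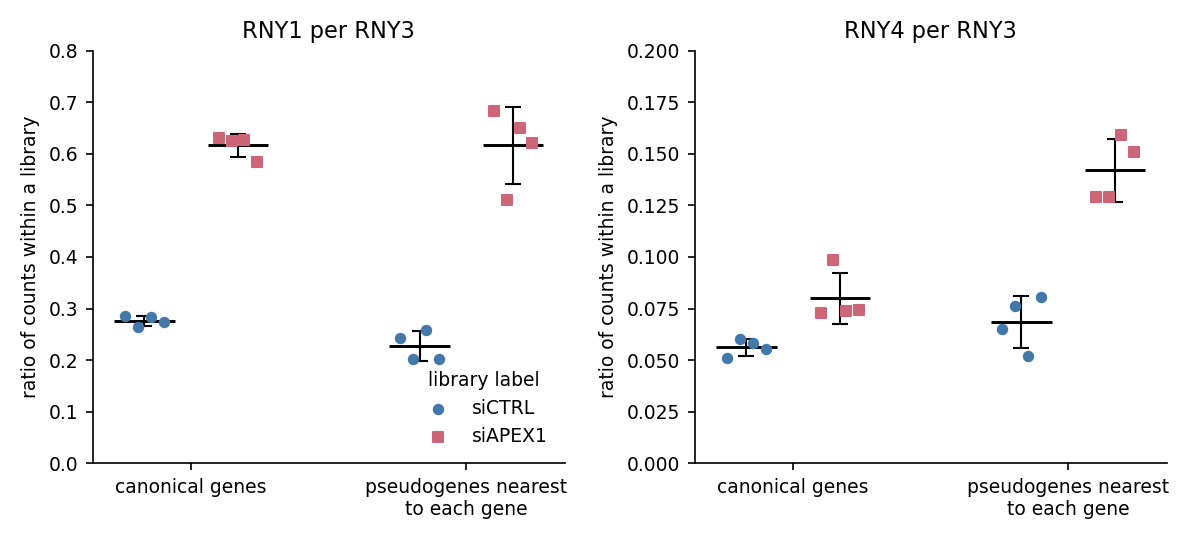
Ratio of counts within each library, RNY1 to RNY3 on the left and RNY4 to RNY3 on the right, for the canonical genes and for the pseudogenes nearest to each of them; circles are siCTRL, squares siAPEX1, bars the mean ± SD of 4 libraries, and the axes start at 0. In each of the 4 pairs the siAPEX1 libraries lie above the siCTRL libraries. The canonical RNY1 to RNY3 ratios are at least 0.584 against at most 0.285. The canonical genes were chosen on this contrast, so nothing is read from the lack of overlap.

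Together RNY1, RNY3 and RNY4 had 3961, 4928, 4639 and 4228 counts in the libraries labelled siCTRL and 6722, 7340, 7134 and 6046 in those labelled siAPEX1. They took 0.243% ± 0.0176 of all counts against 0.467% ± 0.0468 (SD, n = 4 each). The difference was 1.27 on the log2 CPM scale, and 0.94 with library size alone.

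The genes of the binding proteins had at most 63 counts in any library, and their groups overlapped in CPM. Nothing is read from this difference from the Y RNAs. RO60 had 36, 42, 49 and 23 counts in the libraries labelled siCTRL and 26, 30, 37 and 35 in those labelled siAPEX1. In CPM the groups overlapped at 18.1 ± 4.17 against 24.5 ± 2.76, with siCTRL replicate 4 the lowest library, and the log2 fold change was 0.43 ± 0.182 (SE). It was not called, but was called (higher) without siCTRL replicate 3 (log2 fold change 0.54), without siAPEX1 replicate 1 (0.52) and with TMM factors from protein-coding genes (0.47), and it was 0.09 with library size alone.

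SSB had 58, 57, 63 and 54 counts in the libraries labelled siCTRL and 35, 33, 39 and 30 in those labelled siAPEX1. Its raw counts were lower in every siAPEX1 library, but after TMM scaling the groups overlapped, at 28.3 ± 0.943 CPM against 26.3 ± 2.16 CPM. The log2 fold change was -0.10 ± 0.151 (SE). It was not called, but with library size alone it was -0.44 and past the threshold, so the value depends on the scaling. At these counts only changes well above the SE of 0.151 to 0.182 could be seen for the binding proteins.

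Per 100 bases of exon, the order of levels was RNY3, RNY1, RNY4, SSB and RO60 in each group. In the libraries labelled siCTRL the levels were 1596 ± 138, 397 ± 22, 95.5 ± 13.8, 0.560 ± 0.0187 and 0.199 ± 0.0460 CPM per 100 bases (SD, n = 4). In those labelled siAPEX1 they were 3027 ± 239, 1687 ± 176, 259 ± 59.7, 0.520 ± 0.0427 and 0.270 ± 0.0304. No neighbours in this order overlapped in either group. The kit was made for small RNAs, so the Y RNA and the mRNA levels are not on one footing even per length, and for RO60 and SSB the length is that of the exons of all annotated transcripts joined.

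The Y RNA genes have many near copies in the genome, and the counts hold only reads that map to 1 place. Of the 89 windows of 25 bases in RNY1, the 78 in RNY3 and the 72 in RNY4, 0 occurred only once in the genome. At 60 bases 98.1% of the windows of RNY1 were unique, 59.5% of those of RNY4 and 4.7% of those of RNY3, and at full length all 4 RNAs were unique. The longest exact match elsewhere was 60 bases for RNY1, 74 for RNY4, 92 for RNY3 and 29 for RNY5. An error-free read was thus sure to be unique only above 92 bases for RNY3 but above 60 for RNY1. Reads were sequenced to 100 bases, and their lengths after trimming are not in the count table, so the bearing of fragment length on the ratios was not tested.

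The pseudogenes of Y RNAs had the same order of change, but as near copies of the canonical genes they are not an independent set of counts. The table held 809 of them (the GENCODE 44 symbol Y_RNA, or the name of a canonical gene followed by P and a number), and 319 had at least 1 count. They summed to 178, 215, 206 and 181 CPM in the libraries labelled siCTRL and to 442, 473, 394 and 456 CPM in those labelled siAPEX1, without overlap and with a difference of 1.18 on the log2 CPM scale. Each pseudogene was assigned to the canonical gene with which it shared most bases. The 335 rows nearest to RNY1 summed to 67, 72, 90 and 53 counts against 207, 185, 201 and 206, which is 4.51-fold in CPM. The 83 rows nearest to RNY4 summed to 18, 27, 18 and 21 counts against 39, 47, 49 and 50, or 3.45-fold. The 391 rows nearest to RNY3 summed to 276, 355, 347 and 261 counts against 303, 363, 309 and 331, or 1.67-fold. The order RNY1, RNY4, RNY3 was that of the canonical genes, whose folds were 4.25, 2.71 and 1.9. Whether reads of the canonical genes are among the pseudogene counts was not tested. In CPM no class overlapped between the groups, from which nothing is read. The class of RNY3 had a log2 difference of 0.40 with library size alone.

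**Figure D3:**
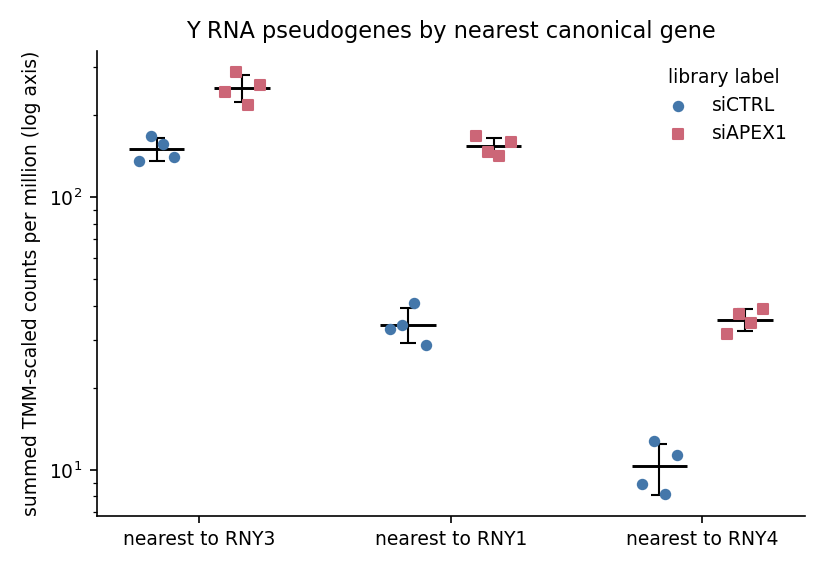
Summed TMM-scaled CPM (log axis) of the Y RNA pseudogenes nearest to RNY3 (391 rows), RNY1 (335 rows) and RNY4 (83 rows) in each library; circles are siCTRL, squares siAPEX1, bars the mean ± SD of 4 libraries. The groups do not overlap in any class, and the distance is greatest for RNY1 (4.51-fold).

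Per 100 counts of the canonical gene, the pseudogenes nearest to RNY1 had 7.64 ± 1.29 counts in the libraries labelled siCTRL and 8.15 ± 1.16 in those labelled siAPEX1. For RNY3 these values were 9.26 ± 0.764 and 8.16 ± 0.783, and for RNY4 11.2 ± 1.51 and 14.8 ± 3.13 (SD, n = 4 each). The groups overlapped in each of the 3 classes. Pseudogenes and canonical genes are near copies, so the split of reads between them is uncertain. Of the 809 rows, 517 had no gene on the same strand, 264 lay in an intron and 28 in an exon of a gene on the same strand. With only the rows outside same-strand genes the log2 difference was 2.19 for the class of RNY1, 1.85 for RNY4 and 0.71 for RNY3.

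Both pseudogenes nearest to RNY1 that passed the filter are shown, with capitals at the bases that differ from RNY1 or are inserted.
ENSG00000206822: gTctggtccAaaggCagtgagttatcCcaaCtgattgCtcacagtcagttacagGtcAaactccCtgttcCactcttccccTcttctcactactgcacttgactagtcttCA
ENSG00000207404: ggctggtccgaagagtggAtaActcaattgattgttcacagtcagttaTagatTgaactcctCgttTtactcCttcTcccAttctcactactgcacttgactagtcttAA
ENSG00000207481 (chr4:41303237-41303337, minus strand, outside annotated genes) was the most counted pseudogene and is 92.2% identical to RNY3. It had 84, 92, 100 and 74 counts in the libraries labelled siCTRL and 52, 63, 50 and 46 in those labelled siAPEX1, and in CPM the groups overlapped, with a log2 fold change of -0.07 ± 0.133 (SE). It was not called, and without this row the class of RNY3 had a log2 difference of 0.97 in place of 0.74. ENSG00000206822 (chr14:63621760-63621871, plus strand, opposite an intron of WDR89) is 87.6% identical to RNY1. It had 8, 18, 17 and 10 counts against 57, 46, 45 and 49, with no overlap and a log2 fold change of 2.54 ± 0.207 (SE). ENSG00000207404 (chr5:108891437-108891546, plus strand, in an intron of FER on the same strand) is 87.6% identical to RNY1 and was picked after its values were seen. It had 2, 2, 5 and 3 counts against 23, 14, 16 and 15, and a log2 fold change of 3.09 ± 0.362 (SE). ENSG00000206822 and ENSG00000207404 passed the filter only through the libraries labelled siAPEX1, where they were high, so their differences support nothing.

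Of the pseudogenes 9 passed the filter on low counts, 7 nearest to RNY3 and 2 nearest to RNY1. By edgeR 8 of them were called higher and 0 lower, against 15.9% and 15.8% of all genes tested. Among the others with many counts, all nearest to RNY3, ENSG00000207142 (chr12:42454720-42454821, in an intron of PPHLN1, 97.1% identical) had a log2 fold change of 0.63 ± 0.213 (SE). The values were 1.49 ± 0.216 for ENSG00000200494 (chr20:16670641-16670742, 95.1% identical) and 1.14 ± 0.252 for ENSG00000207293 (chr5:57169108-57169209, 90.2% identical). A row with few counts could pass only through the group where it was high, so the count of 8 supports nothing.

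Y RNA genes have their promoter elements upstream of the transcript, and the 250 bases before RNY1, RNY4 and RNY5 are shown because the 3 measured Y RNAs were all higher, by unequal amounts. Capitals mark matches to TATAA on the gene's strand in the last 40 bases, and to ATGCAAA, ATGCAAAT (which contains ATGCAAA) and CCCANNATGC on either strand in the 250 bases. The motifs were chosen after the upstream sequences of all 4 genes had been read, so their presence here is no finding.
RNY1, chr7:148987249-148987498, minus strand: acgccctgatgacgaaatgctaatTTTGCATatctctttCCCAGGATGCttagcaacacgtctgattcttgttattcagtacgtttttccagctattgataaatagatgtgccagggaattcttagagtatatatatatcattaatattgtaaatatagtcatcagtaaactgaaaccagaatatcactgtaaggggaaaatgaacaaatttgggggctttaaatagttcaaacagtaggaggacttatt
RNY4, chr7:148963065-148963314, plus strand: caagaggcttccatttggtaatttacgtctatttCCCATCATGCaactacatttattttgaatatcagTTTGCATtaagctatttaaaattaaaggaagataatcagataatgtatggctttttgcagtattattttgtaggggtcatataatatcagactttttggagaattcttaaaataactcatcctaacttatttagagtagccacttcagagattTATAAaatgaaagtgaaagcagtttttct
RNY5, chr7:148941238-148941487, plus strand: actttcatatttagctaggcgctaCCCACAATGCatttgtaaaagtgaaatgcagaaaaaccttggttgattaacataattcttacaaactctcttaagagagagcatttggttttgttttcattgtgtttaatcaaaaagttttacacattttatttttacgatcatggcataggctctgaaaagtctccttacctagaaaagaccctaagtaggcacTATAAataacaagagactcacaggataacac
CCCANNATGC was present upstream of all 4 canonical genes, upstream of 0.7% of the 809 pseudogenes and in 1.5% of 35116 RefSeq promoter windows of the same length. ATGCAAA, the core of the octamer that POU factors read, was present upstream of RNY1, RNY3 and RNY4, of 7.5% of the pseudogenes and in 3.9% of the promoters, and the longer ATGCAAAT upstream of RNY3, of 2.5% and in 1.6%. TATAA began 28 bases before RNY3, 29 before RNY4 and 31 before RNY5, and was found in this window in 7.3% of the pseudogenes and 4.3% of the promoters. These letters were not found in the window of RNY1. The matches describe the sequences and are not sites shown to be bound.

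Other RNA polymerase III transcripts, which La also binds, rose in part. Of the 33 genes on this list 8 were tested, and their median log2 fold change was 0.44, against 0 over all genes tested. By edgeR 5 were called higher and 0 lower, against 15.9% and 15.8% of all genes tested. At an unadjusted p under 0.05 edgeR had 0 lower as well, and DESeq2 called 5 higher and 0 lower. RNU6-2, a U6 spliceosomal RNA gene, had 10, 10, 6 and 10 counts in the libraries labelled siCTRL and 22, 33, 38 and 24 in those labelled siAPEX1 (log2 fold change 2.33 ± 0.252, SE, edgeR adjusted p = 6.53e-10). It passed the filter on low counts only through the libraries where it was high, so its call is no independent support. RNU6-9, another U6 gene, rose by 1.3 ± 0.157 (adjusted p = 1.05e-08). The 5S ribosomal RNA gene RNA5S9 (0.59 ± 0.114, adjusted p = 7.43e-05), the vault RNA gene VTRNA1-3 (0.51 ± 0.0864, adjusted p = 8.15e-06) and RN7SL2, an RNA of the signal recognition particle (0.37 ± 0.0796, adjusted p = 3.03e-04), rose less, and these 3 lost the call with library size alone. Under that scaling 2 genes of the list were called higher (RNU6-2 and RNU6-9) and 2 lower (VTRNA1-1 and RNU6ATAC), so the direction of the list depends on the scaling.

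The other vault RNAs and U6atac were not called. VTRNA1-1 had 1639, 2428, 1997 and 1851 counts against 1088, 1202, 1463 and 1133 (log2 fold change -0.05 ± 0.0944), VTRNA1-2 had a log2 fold change of 0.18 ± 0.119 and RNU6ATAC, with 2165 ± 171 CPM against 2198 ± 145 CPM, of 0.02 ± 0.0844. RN7SK, RN7SL1, RMRP, RPPH1 and 16 of the 17 numbered 5S genes were listed at 0 in all libraries. The cause of these zeros was not tested, and they say nothing of the RNA. The U6 and 5S genes are near-identical copies, so the counts of single genes are uncertain.

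Of 22 genes for proteins known to bind Y RNAs or their particles 17 were tested, with a median log2 fold change of 0.07. MATR3, not tested, was read from 1 row with at most 1 count in any library, and other rows of its symbol, if any, were not used. Among the tested genes 1 was called higher and 3 lower, against 15.9% and 15.8% of all genes tested. CALR, the chaperone calreticulin, fell from 241 ± 29.0 CPM to 107 ± 7.69 CPM (log2 fold change -1.17 ± 0.103, edgeR adjusted p = 3.34e-12). NCL, the nucleolar protein nucleolin, had 270, 259, 303 and 272 counts against 99, 110, 142 and 98 (-0.65 ± 0.105, adjusted p = 4.32e-06). PTBP1, a splicing regulator, fell by 0.66 on the log2 scale (SE 0.179, adjusted p = 0.00361), and lost the call, though not the direction, without siAPEX1 replicate 3 (-0.47, adjusted p = 0.0589). YBX3, a cold-shock domain protein, rose by 0.39 ± 0.121 (adjusted p = 0.0122) and lost the call with DESeq2 (adjusted p = 0.0657), with all genes of at least 1 count (0.187) and with library size alone (0.05, adjusted p = 0.776). Not called were YBX1 with 0.41 ± 0.176 on the log2 scale (adjusted p = 0.0747), HNRNPK with -0.02 ± 0.144 and PUF60 with -0.06 ± 0.276.

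Of 8 genes for La-related proteins, the 7SK capping enzyme and the Ro52 antigen TRIM21, 7 were tested, with a median log2 fold change of 0.11. By edgeR 0 were called higher and 1 lower, against 15.9% and 15.8% of all genes tested. At an unadjusted p under 0.05 edgeR had 2 higher and 1 lower, and DESeq2 called 0 higher and 1 lower. LARP6, which binds collagen mRNAs, had 20, 20, 26 and 22 counts against 3, 8, 2 and 6 (log2 fold change -1.54 ± 0.331, edgeR adjusted p = 3.11e-04). It passed the filter only through the libraries labelled siCTRL, where it was high, so this single call of the list supports little. LARP7, which binds the 3′ end of 7SK RNA, was at 0.30 ± 0.208 on the log2 scale (adjusted p = 0.299) and LARP4 at 0.48 ± 0.225 (adjusted p = 0.0982).

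**Figure D4:**
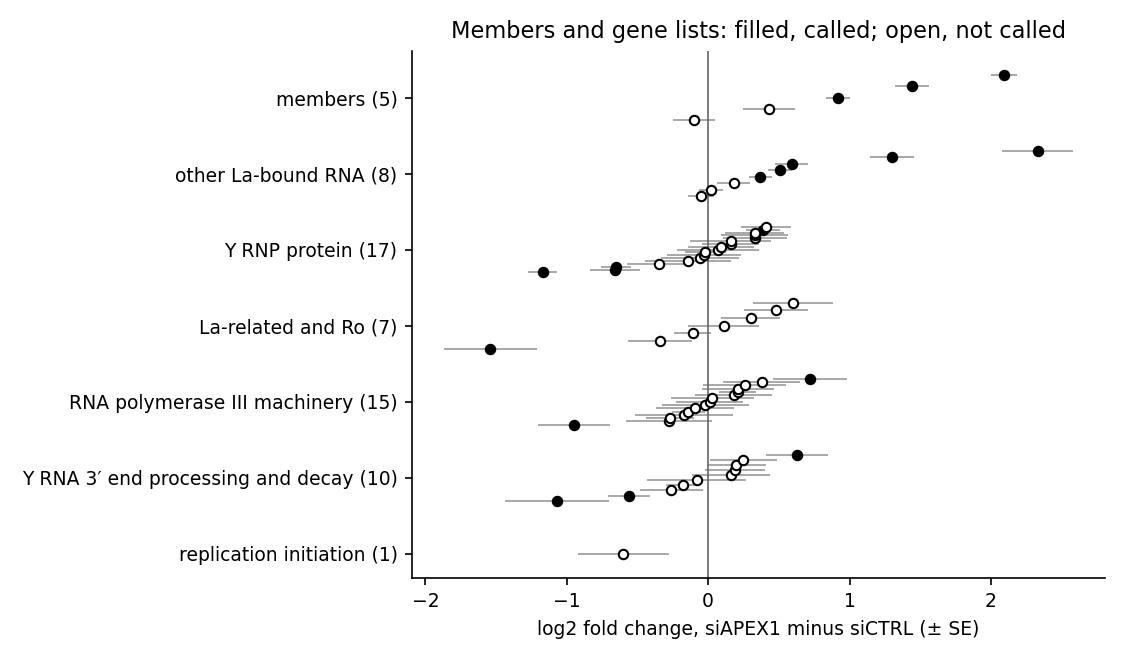
Log2 fold change (siAPEX1 minus siCTRL) with its standard error for the 5 members and for the tested genes of 6 lists, with the number tested in brackets; filled points were called at an adjusted p of at most 0.05 and open points were not. RNY1 (2.09), RNY4 (1.44) and RNY3 (0.92) were chosen with this contrast known, so their place beside the lists is no result. RNU6-2 (2.33), of the other La-bound RNAs, lies to the right of all of them.

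The machinery that makes Y RNAs was measured at low counts. Of 37 genes for subunits and factors of RNA polymerase III 15 were tested, with a median log2 fold change of 0.01. Among them 1 was called higher and 1 lower, against 15.9% and 15.8% of all genes tested. MAF1, the repressor of RNA polymerase III, had 28, 44, 27 and 26 counts in the libraries labelled siCTRL and 8, 13, 12 and 8 in those labelled siAPEX1 (log2 fold change -0.95 ± 0.254, edgeR adjusted p = 0.00336). It passed the filter on low counts only through the libraries labelled siCTRL, where it was high, so its call is no independent support. POLR3D, a subunit of the polymerase, rose by 0.72 ± 0.260 (adjusted p = 0.0301). It too passed the filter only through the group where it was high, the libraries labelled siAPEX1, so its call is no independent support. This call was lost with DESeq2 (adjusted p = 0.116), with all genes of at least 1 count (0.154), with library size alone (0.238) and when siAPEX1 replicate 1 (adjusted p = 0.0591), siAPEX1 replicate 4 (0.0821), siCTRL replicate 2 (0.0552) or siCTRL replicate 3 (0.128) was left out. POU2F1, which reads the octamer, had a log2 fold change of 0.21 ± 0.254 and SNAPC1, of the complex that binds the proximal element, of 0.01 ± 0.238. ZNF143 had 3 to 11 counts per library and was not tested.

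Of 24 genes for enzymes that trim, tail or degrade small RNAs 10 were tested, with a median log2 fold change of 0.04. Among them 1 was called higher and 2 lower, against 15.9% and 15.8% of all genes tested. MTREX, the helicase that feeds RNAs to the nuclear exosome, had 76, 78, 75 and 60 counts against 32, 31, 28 and 33 (log2 fold change -0.56 ± 0.151, edgeR adjusted p = 0.00338). EXOSC5, an exosome subunit, had 28, 14, 14 and 11 counts against 3, 8, 5 and 4 (-1.07 ± 0.368, adjusted p = 0.0219), and had under 10 counts in every library labelled siAPEX1. It thus passed the filter only through the libraries labelled siCTRL, where it was high. Without siCTRL replicate 1 its log2 fold change was -0.71 (adjusted p = 0.173), and its call was also lost without siAPEX1 replicate 1 (0.0934), 3 (0.0659) or 4 (0.0796) and with DESeq2 (0.086). XRN1, the cytoplasmic 5′ to 3′ exonuclease, rose by 0.63 ± 0.221 (adjusted p = 0.0243), a call lost with DESeq2 (adjusted p = 0.1), with all genes of at least 1 count (0.143), with library size alone (0.284) and without siCTRL replicate 1 (0.0519), siCTRL replicate 2 (0.0908) or siAPEX1 replicate 2 (0.0894). PARN, which trims Y RNA ends, had 15 to 18 counts against 8 to 16 and differed by 0.16 ± 0.275 on the log2 scale (adjusted p = 0.714). Of 9 genes of replication initiation, only DTD1, which encodes the DNA unwinding element binding protein, had enough counts to be tested (-0.60 ± 0.320 on the log2 scale, adjusted p = 0.159).

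The genes whose pattern over the 8 libraries was most like that of the summed Y RNAs were found by the root mean square difference of centred log2 CPM among 1668 genes with a mean of at least 20 CPM. They were RNU5F-1 (0.0838), LINC01783 (0.0973), MBNL1 (0.117), SNORD13 (0.123) and ANXA1 (0.127). For RO60 they were RNF215 (0.0974), ANAPC11 (0.107) and PRKAR1A (0.137), and for SSB PKM (0.0572), ATP1B1 (0.0595) and KHDRBS1 (0.0637). In a search added later RNY1 was nearest to RNU2-63P (0.170), FGA (0.201) and RPS27L (0.203), and RNY3 to SNORD92 (0.0661), SNORD53 (0.0856) and NFE2L2 (0.0934).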

How the data were processed

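Gene counts of 8 libraries (4 labelled siCTRL, 4 labelled siAPEX1, grouped by title and treatment label) were used. The counts were deposited by the authors as whole, unnormalized numbers per Ensembl gene. They came from adapters and tails trimmed with cutadapt and alignment to GRCh38 with STAR 2.5.3a in its GeneCounts mode, which counts uniquely mapped reads. CASAVA and DESeq2 are named in the submitters' processing notes. The annotation release and the strand column are not given in the sources used here, so reads from overlapping and antisense genes may be mixed. GENCODE 44 gave a symbol to 57532 of 58302 rows.

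The members and all lists were chosen with earlier results of these data known. The groups were compared in R 4.3.3 with the quasi-likelihood test of edgeR 4.0.16 (TMM factors, filterByExpr at its settings of 10 for the count and 15 for the total, Benjamini-Hochberg adjustment over 5368 genes, called at an adjusted p of at most 0.05). The filtered genes held between 97.5% and 98.1% of the counts. The standard error is the absolute log2 fold change divided by the square root of F. Log2 CPM used a prior count of 2. Sums and ratios got no test. Named genes were the members, the 5 most counted pseudogenes, up to 5 called genes of each list, the nearest genes in pattern and APEX1. The scripts were tested on simulated data. The common biological coefficient of variation was 0.0832. The study calls its RNA-seq libraries biological replicas, but neither it nor the labels say whether they are separate cultures, so p-values measure the spread between these libraries, which may be technical. No pair of libraries agreed within sampling noise. Structures were predicted with RNAfold 2.7.2, and sequence was read from GRCh38, with RNY5 placed by RefSeq (GRCh38.p14). The sequence of RNY3 is not reported here. Alternatives were other scalings, DESeq2 1.42.0, other filters and thresholds, a replicate block and each library left out.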

Additional observations from a re-analysis of the deposited data

Results flagged for a closer look

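In groups of 4 libraries, a library was picked out when its gap to the nearest other library exceeded Dixon's critical value as a share of the group's range. Of 54 groups looked at, 5 met this, and chance alone picks out about 1 in 20 groups. The ratio of RNY1 to RNY3 was 0.584 in siAPEX1 replicate 4, against 0.625 to 0.63 in the other libraries labelled siAPEX1. The ratio of RNY4 to RNY3 was 0.0986 in siAPEX1 replicate 2, against 0.0729 to 0.0743. EXOSC5 had 13.8 CPM in siCTRL replicate 1 and 5.95 to 6.63 CPM in the other libraries labelled siCTRL. RNA5S9 had 128 CPM in siAPEX1 replicate 2, against 98.7 to 101 CPM, and VTRNA1-3 had 418 CPM in siCTRL replicate 3, against 478 to 483 CPM.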

How the results depend on the processing

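None of the log2 differences recomputed for the sums, ratios, members and called list genes changed sign under any alternative. The balance of calls was less stable, since library size alone gave the other La-bound RNAs 2 higher and 2 lower calls in place of 5 and 0. The replicate block (1595 genes called in place of 1702, and 3 members) changed no call of a member or of a called list gene. Samples with the same replicate number did not deviate together (correlations of -0.0373 to -0.00348), so the numbers were not taken as pairs. DESeq2 called 1123 genes, and thresholds of 1 and 0.75 on the absolute log2 fold change left 498 (193 higher, 305 lower) and 934 (404 higher, 530 lower). Library size alone turned 856 higher and 846 lower calls into 346 and 1917, and all genes with at least 1 count gave 703 and 1126.

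With thresholds of 1 and 0.75, the lists had 1 and 1 calls for Y RNA-binding proteins, 1 and 1 for decay, 0 and 1 for RNA polymerase III and 2 and 2 for other La-bound RNAs. DESeq2 called 1 decay and 1 RNA polymerase III gene. A minimum of 10 counts in every library left 1 RNA polymerase III and 0 La-related genes called, and library size alone gave 3 La-related and 1 replication gene. Leaving out 1 library gave 1 to 3 decay calls (1 without siCTRL replicate 1), 1 to 2 RNA polymerase III calls (1 without siAPEX1 replicate 1 or 4 or siCTRL replicate 2 or 3) and 1 to 2 La-related calls (2 without siAPEX1 replicate 2). Of the members, 2 passed the threshold of 1, RNY3 not among them.

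Library size alone moved the log2 difference of the canonical sum to 0.94 and of the pseudogene sum to 0.84, and of the classes of RNY1, RNY3 and RNY4 to 1.85, 0.40 and 1.47. Without the most counted row, an alternative chosen after seeing the data, the pseudogene sum was 1.4 and the class of RNY3 0.97. In all, 30 values of these comparisons moved and 213 did not. Leaving out any 1 library kept RNY1 between 2.05 and 2.18, RNY3 between 0.87 and 0.99 and RNY4 between 1.29 and 1.54. Depth limits RO60 and SSB, with at most 63 counts in any library, and most list genes. The cause of these shifts was not tested.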
